A study of Bos taurus with 6 samples.

Results

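RRAD, RASD1 and related small GTPases are a group of 10 genes of the RAS branch of small GTPases, taken by gene symbol. RRAD and RASD1 were selected on their measured difference between the GSKA and control libraries in these same data, and RASD2, GEM, REM1, REM2, RHEB, RAP1A, RAP1B and RALA were listed with them as relatives. Of the 10 genes, 9 were found among the 18862 genes of the files by that symbol, and GEM was not analysed here. All 9 reached 1 FPKM in 3 or more of the 6 libraries and so were among the 10654 genes compared between the groups.

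The scRNA-seq data comprised 6 libraries of bovine 8-cell embryos made by IVF, 3 from the control group and 3 from the group cultured with 200 pmol/L GSKA, an inhibitor of lactate dehydrogenase A that the study used to lower histone lactylation. Both groups had the same low amount of the solvent DMSO in the culture medium. The oocytes came from slaughterhouse ovaries, the zona pellucida was removed, and each library is 1 sample of embryo RNA with no separate cells. The study calls its replicates biological, but neither the number of embryos in a library nor whether the replicates came from separate cultures is stated. P-values therefore reflect the spread of these libraries alone, part of which could be technical. The labels give "embryo" as the cell type and "female" as the tissue. Levels are in FPKM, a count of fragments scaled to transcript length and to the mapped total, from which read counts and so the depth cannot be read back. In such bulk libraries, fewer cells with a transcript and less of it per cell cannot be told apart.

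Small GTPases bind GTP to switch on and hydrolyse it to switch off, and exchange factors and GTPase-activating proteins set the balance. RRAD, GEM, REM1 and REM2 form the RGK subfamily, whose members bind the beta subunit of voltage-gated calcium channels and lower the calcium current. RASD1, first found as a transcript induced by dexamethasone, and RASD2, known from the striatum, act on G protein signalling. RHEB activates the growth kinase complex mTORC1, RAP1A and RAP1B serve integrin and cadherin adhesion, and RALA steers the exocyst in vesicle delivery.

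The study designed 1 primer pair for bovine RRAD, the only member so measured by qRT-PCR. The pair is shown because it defines the piece of the transcript that this second assay read. The study counted RRAD among its differentially expressed genes and reported a qRT-PCR pattern that followed the trend in its sequencing. The qRT-PCR values were not analysed here. Both primers are written 5′ to 3′ in lower case, with 52.4% and 55% G or C.
RRAD forward primer: tgacatttgggagcaggatgg
RRAD reverse primer: tctcgaagcttcccttgtcg

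RRAD was higher in the GSKA group. RRAD (ENSBTAG00000013929) lies on chromosome 18 from 34626237 to 34629485 on the minus strand, in the coordinates of the authors' files, with 1 annotated transcript. Its FPKM was 3.43, 4.87 and 0.822 in control replicates 1, 2 and 3, and in the same order 17.5, 19.8 and 9.07 in the GSKA group. All 3 GSKA libraries lay above all 3 controls, and replicate 3 was the lowest in each group. The mean level was 3.04 ± 2.05 FPKM in the controls against 15.5 ± 5.65 after GSKA (SD, n = 3 each), a ratio of means of 5.09. On the log2(FPKM + 1) scale the difference, GSKA minus control, was 2.12 (standard error 0.463). It was the 14th highest difference of the 10654 tested genes, a rank that describes the choice of RRAD and tests nothing. Within a library, RRAD lay at percentiles 5.87 to 45.0 of the tested genes by FPKM in the controls and at 55.5 to 70.6 in the GSKA group.

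RASD1 was lower in the GSKA group. RASD1 (ENSBTAG00000020520) lies on chromosome 19 from 34819717 to 34821443 on the plus strand, also with 1 annotated transcript. Its FPKM was 17.0, 15.0 and 14.8 in control replicates 1, 2 and 3, and in the same order 2.97, 1.24 and 1.26 in the GSKA group. The controls were close to each other, the GSKA libraries were all far below them, and GSKA replicate 1 was the highest of its group. The mean level was 15.6 ± 1.21 FPKM in the controls against 1.82 ± 0.991 after GSKA (SD, n = 3 each), so that the control mean was 8.57 times the GSKA mean. The difference in log2(FPKM + 1) was -2.61 (standard error 0.361). It was the 8th lowest of all tested genes, a rank that likewise describes the choice of RASD1 and tests nothing. Within a library, RASD1 lay at percentiles 66.0 to 68.9 in the controls and at 10.2 to 28.3 in the GSKA group.

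The 2 genes exchanged places among the members, which goes with their selection on this contrast and is a description. The FPKM of RRAD divided by that of RASD1 ran from 0.0554 to 0.325 in the controls and from 5.91 to 16.0 in the GSKA libraries. Since FPKM is per length of transcript, it orders genes within a library: RASD1 ranked 4 among the 9 members in every control and RRAD ranked 4 in every GSKA library, while RRAD ranked 6 to 9 in the controls and RASD1 ranked 7 to 9 in the GSKA group.

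**Figure D1:**
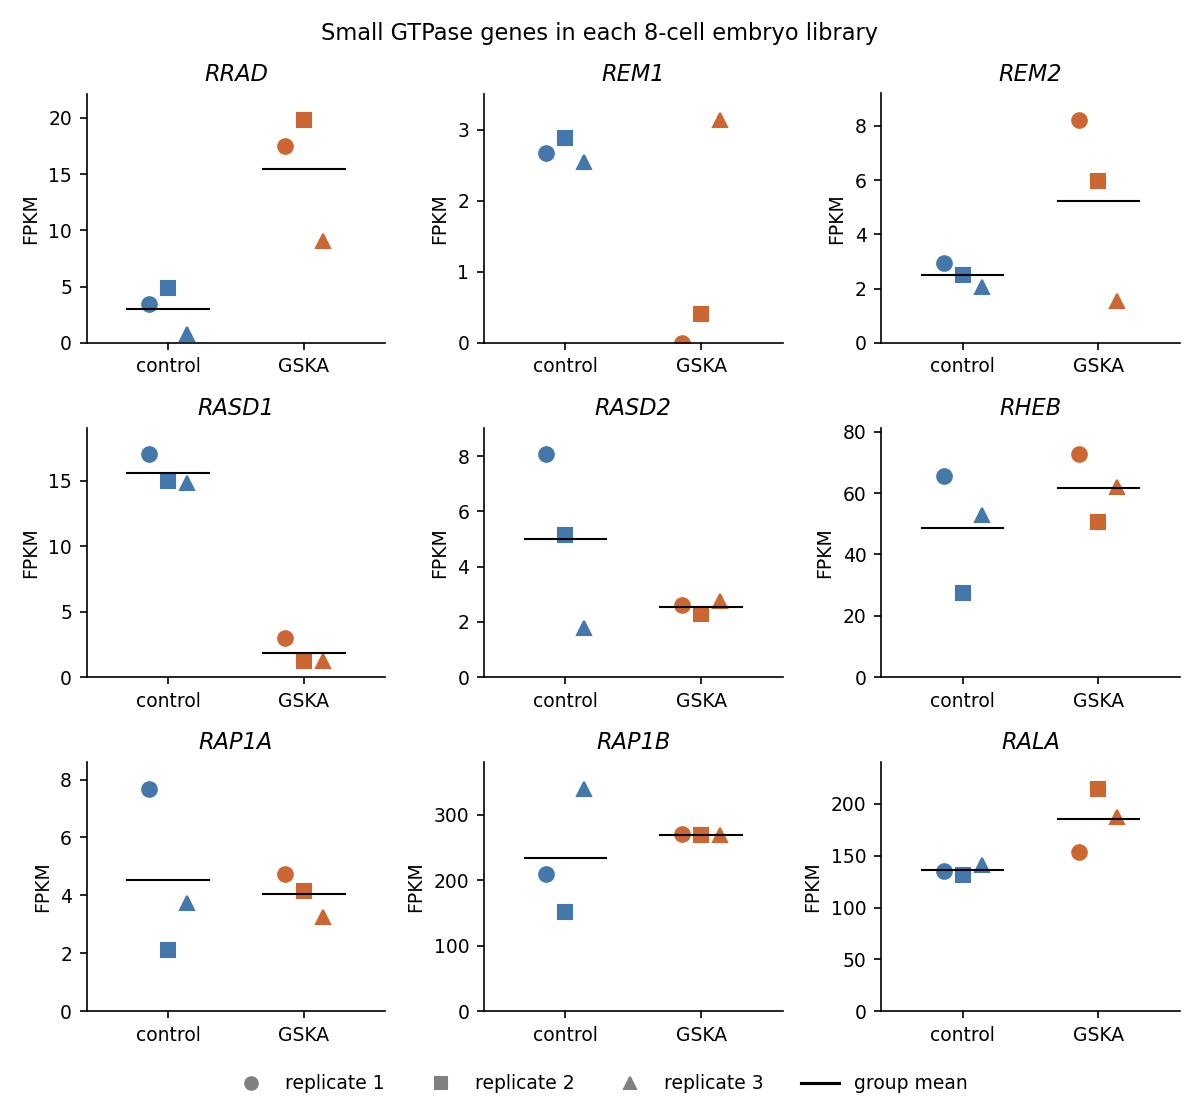
FPKM of each of the 9 members in the 3 control and 3 GSKA libraries of 8-cell embryos, with the symbol giving the replicate number and the line the group mean (no mean is drawn for REM1, listed at 0 in 1 library). RRAD lies at 0.822 to 4.87 in the controls and 9.07 to 19.8 after GSKA, RASD1 at 14.8 to 17.0 and 1.24 to 2.97, and among the other members the groups are separate only for RALA.

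Of the 4 genes on either side of RRAD and RASD1, CIAO2B and MED9 were tested and neither was called, while CDH16 and PEMT were too low to be tested. CIAO2B, which serves iron-sulfur protein assembly and lies 5639 bp from RRAD, differed by 0.13 on the log2(FPKM + 1) scale (standard error 0.317, adjusted p = 0.891 from limma), and CDH16, a cadherin gene 2920 bp away on the other side, was at or below 0.0666 FPKM in every library. MED9, a Mediator subunit gene 1551 bp from RASD1, differed by 0.21 (standard error 0.409, adjusted p = 0.869 from limma), and PEMT, a gene of phosphatidylcholine synthesis 3274 bp away, was at or below 0.0169 FPKM. Over the 18 nearest neighbours of the 9 members, 12 were tested and 0 were called, where 0.357% of all tested genes were. None of the members found overlaps another annotated gene.

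REM2 and REM1, the other RGK members analysed, had groups that overlapped, and their difference from RRAD was not tested. REM2 (ENSBTAG00000016381, chromosome 10, 21942073 to 21946377) was at 2.96, 2.52 and 2.08 FPKM in control replicates 1, 2 and 3 and at 8.21, 5.95 and 1.56 in the GSKA libraries. GSKA replicates 1 and 2 lay above the controls and replicate 3 below them, so the groups overlapped. Its mean level was 2.52 ± 0.442 against 5.24 ± 3.38 FPKM (SD, n = 3 each), a difference in log2(FPKM + 1) of 0.65 (standard error 0.471).

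REM1 (ENSBTAG00000014176, chromosome 13, 61074110 to 61083228) had 2.68, 2.88 and 2.54 FPKM across the controls, and was listed at 0 in GSKA replicate 1 and at 0.412 and 3.14 FPKM in the other GSKA libraries, replicates 2 and 3. GSKA replicate 3 was the highest library of all 6 and the other GSKA libraries were the lowest. The fitted difference in log2(FPKM + 1) of -1.04 (standard error 0.499) includes the listed 0, and it was -0.61 without that library and -2.35 with a pseudocount of 0.1. In the GSKA group, replicate 3 was thus the lowest for RRAD and REM2 and the highest for REM1.

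The calcium channel genes on which RGK proteins act were low in both groups. Of 12 genes for voltage-gated calcium channel subunits, 5 were tested, 3 were below 1 FPKM in every library, and the highest value of any of them in any library was 3.23 FPKM.

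RASD2 (ENSBTAG00000017116, chromosome 5, 73749045 to 73760542), the closest relative of RASD1, was at 8.07, 5.16 and 1.77 FPKM in control replicates 1, 2 and 3 and at 2.60, 2.28 and 2.77 in the GSKA libraries. The GSKA libraries were close together, and they fell inside the range of the controls, among which replicate 3 was the lowest of all. Its mean level was 5.00 ± 3.15 against 2.55 ± 0.250 FPKM (SD, n = 3 each), a difference in log2(FPKM + 1) of -0.60 (standard error 0.448). Of the known partners of RASD1, NOS1AP, an adaptor that links it to neuronal nitric oxide synthase, was listed at 0 in 3 libraries and reached 1.19 FPKM at most. NR3C1, the glucocorticoid receptor gene, lay between 0.0250 and 0.342 FPKM.

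RHEB (ENSBTAG00000031861, chromosome 4, 114003970 to 114056805) had 65.7, 27.5 and 53.0 FPKM across the controls and 72.6, 50.5 and 62.0 across the GSKA group. Replicate 2 was the lowest in each group, and the groups overlapped. The mean level was 48.7 ± 19.5 against 61.7 ± 11.1 FPKM (SD, n = 3 each), a difference in log2(FPKM + 1) of 0.41 (standard error 0.316).

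The RAP1 genes differed from each other far more than either differed between the groups. RAP1A (ENSBTAG00000050904, chromosome 3, 31588106 to 31676077) had 7.69, 2.12 and 3.76 FPKM across the controls and 4.74, 4.15 and 3.26 across the GSKA group. RAP1B (ENSBTAG00000008967, chromosome 5, 45157005 to 45200873) had 210, 151 and 340 FPKM across the controls and 271, 269 and 269 across the GSKA group. For both genes the GSKA libraries were closer together than the controls and fell inside the range of the controls. The differences in log2(FPKM + 1) were -0.01 (standard error 0.422) for RAP1A and 0.29 (standard error 0.270) for RAP1B, and that of RAP1A changed sign in 3 of 13 alternative settings.

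RALA (ENSBTAG00000006661, chromosome 4, 81187581 to 81244481) had 136, 131 and 141 FPKM across the controls and 154, 215 and 187 across the GSKA group. The lowest GSKA library lay above the highest control, and the GSKA libraries were the more spread. The mean level was 136 ± 4.75 against 185 ± 30.4 FPKM (SD, n = 3 each), a difference in log2(FPKM + 1) of 0.43 (standard error 0.215).

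**Figure D2:**
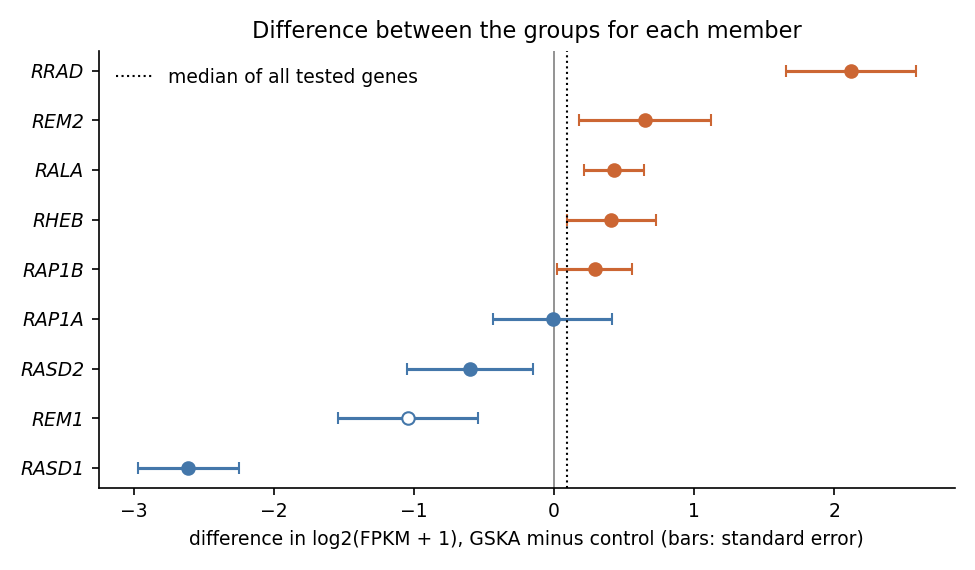
Difference in log2(FPKM + 1), GSKA minus control, for each member, with bars for the standard error, a solid line at 0 and a dotted line at the median of all tested genes (0.09); the open symbol is REM1, which has a listed 0. RRAD at 2.12 and RASD1 at -2.61, both selected on this difference, lie far outside the other 7 members, which run from -1.04 to 0.65.

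In all, 5 members had a higher and 4 a lower mean on the log2 scale in the GSKA group, against a median difference of 0.09 and a median absolute difference of 0.34 over all tested genes. A log2 difference of at least 2 in either direction was found in 42 of the tested genes, 0.394%. At an adjusted p under 0.05 (limma, Benjamini-Hochberg over all tested genes), 1 of the 9 members, RASD1, was called, where 0.357% of all tested genes were. As RRAD and RASD1 were selected on this contrast, the count is given as a description. It was 0 without GSKA replicate 2, 0 without GSKA replicate 3 and 0 when no filter on FPKM was used. The groups did not overlap for 3 of the 9 members, RRAD, RASD1 and RALA, and for 19.4% of all tested genes.

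Over all 13 alternatives, the difference ran from 1.62 to 2.54 for RRAD and from -3.14 to -2.47 for RASD1 on the log2 scale. RASD1 was called in 10 of them and RRAD in 1. Among the 177 tested genes that the files annotate with GTPase activity, of 238 so annotated, RRAD had the highest and RASD1 the lowest difference, the median was 0.13, and RASD1 was the 1 gene called, where 0.357% of all tested genes were. These places follow from the selection of RRAD and RASD1 on the same contrast and are a description.

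The members fell into abundant and scarce ones. In the controls the order by mean FPKM was RAP1B, RALA, RHEB and RASD1, each with a range that did not overlap the next, followed by RASD2, RAP1A, RRAD, REM1 and REM2, whose neighbours in the order overlapped. In the GSKA libraries the order was RAP1B, RALA, RHEB, RRAD, REM2, RAP1A, RASD2, RASD1 and REM1. There each of the first 4 stayed clear of the next, RAP1A and RASD2 did not overlap, and the remaining neighbours did. The 9 members summed to 342 to 559 FPKM in the controls and 533 to 568 in the GSKA libraries. RAP1B made up 44.1% to 60.8% of the sum over the 6 libraries, RALA 25.2% to 38.4% and RHEB 8.03% to 14.5%, while RRAD made up 0.147% to 3.48% and RASD1 0.218% to 4.38%.

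For the pairs of close relatives, the level within each library was compared. The pairs were added after values were seen, so the comparison is a description with no test. RAP1B was 27.3 to 90.5 times RAP1A in FPKM, with a median of 67.9. RALB, the relative of RALA, was 1.15 to 1.65 times RALA, with a median of 1.45. RHEBL1, the relative of RHEB, was 6.58 to 20.8 times RHEB, with a median of 10.6. Each direction held in 6 of 6 libraries. The ranges of these ratios in the groups overlapped for all 3 pairs. RAP1A and RAP1B, and RALA and RALB, are similar in sequence, and how the authors assigned fragments between them is uncertain.

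RHEBL1 had 432, 571 and 670 FPKM across the controls and 576, 624 and 543 across the GSKA group, above every one of the 9 members in each library. RALB had 155, 204 and 200 FPKM across the controls and 254, 320 and 253 across the GSKA group. As with RALA, the GSKA libraries all lay above the controls, with a difference in log2(FPKM + 1) of 0.56 (standard error 0.216, adjusted p = 0.280 from limma).

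**Figure D3:**
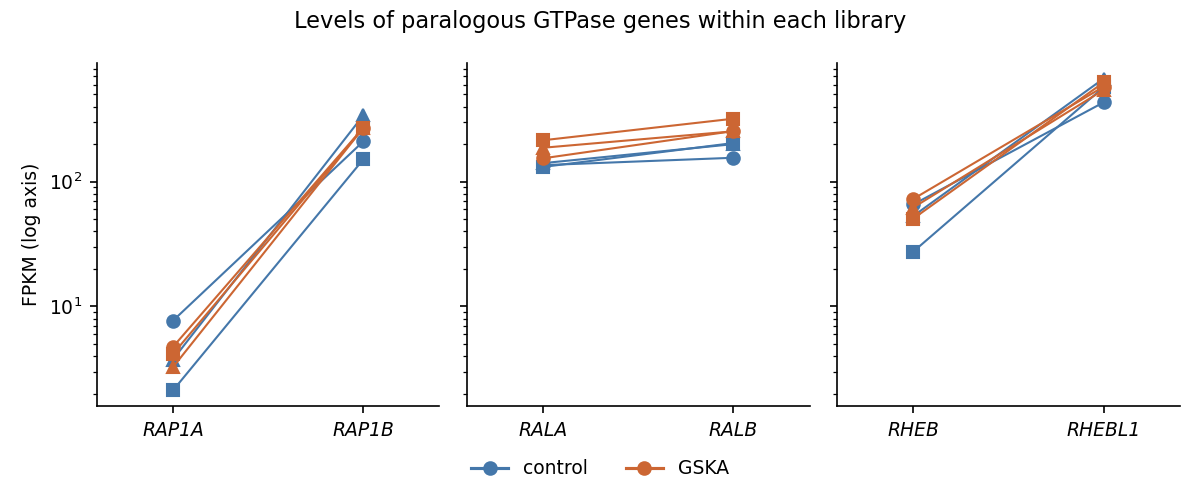
FPKM on a log axis of RAP1A and RAP1B, RALA and RALB, and RHEB and RHEBL1, with a line for each of the 3 control and 3 GSKA libraries. Every line rises to the right: RAP1B is 27.3 to 90.5 times RAP1A, RALB 1.15 to 1.65 times RALA, and RHEBL1 6.58 to 20.8 times RHEB.

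None of the tested relatives and partners of the members was called. Over 7 lists of 137 other RAS-subfamily genes, regulators and partners, 133 were found and 99 tested. Of these, 0 rose and 0 fell (limma, adjusted p under 0.05), where 0.357% of all tested genes were called. At so small a share, a count of 0 among 99 genes says little about them. At an unadjusted p under 0.05, 13 were higher and 1 lower, or 14.1% of the tested list genes against 13.4% of all tested genes. The groups did not overlap for 22 of them (22.2%, against 19.4% of all tested genes), and 66 were higher in the GSKA group (66.7%, against 57.2%). Their median difference in log2(FPKM + 1) was 0.13, beside 0.09 for all tested genes.

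Among the 19 tested genes of the other RAS-subfamily GTPases the median was 0.10. RASL11A, a small GTPase tied in mouse to ribosomal RNA transcription, had 14.3, 28.7 and 16.7 FPKM across the controls and 44.3, 59.2 and 55.7 across the GSKA group. The groups were well apart, with a difference of 1.42 (standard error 0.300, adjusted p = 0.0803 from limma), and without control replicate 2 the adjusted p was 0.0420. The related GTPases RRAS, at 17.6, 29.0 and 20.0 against 12.7, 11.9 and 7.63 FPKM, and RRAS2, at 166, 149 and 266 against 309, 308 and 273 FPKM, differed in opposite directions. Both had groups that did not overlap, with differences of -0.98 and 0.66 (adjusted p = 0.209 and 0.265 from limma).

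The RGK partners had a median of 0.09 over 18 tested genes. The 14-3-3 genes YWHAB and YWHAH, whose products hold RGK proteins in the cytoplasm, differed by 0.65 and 0.62 (adjusted p = 0.209 and 0.315 from limma).

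The list of RASD1 partners and glucocorticoid targets had a median of 0.13 over 10 tested genes, with 0 at an unadjusted p under 0.05 in either direction. The glucocorticoid-induced genes ZBTB16, a zinc finger repressor, and DUSP1, a MAP kinase phosphatase, differed by 0.55 and 0.37 on the log2 scale (adjusted p = 0.435 and 0.521 from limma). KLF9, a further glucocorticoid target, was listed at 0 in control replicates 1 and 3 and at 1.31 FPKM in replicate 2, and was at 1.48, 1.20 and 0.821 FPKM in the GSKA libraries.

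The genes of RHEB, TSC and mTORC1 had a median of 0.15 over 21 tested genes. RRAGC, a RAG GTPase that brings mTORC1 to the lysosome, had 19.3, 10.3 and 15.7 FPKM across the controls and 30.1, 30.1 and 38.8 across the GSKA group. All GSKA libraries were above all controls, with a log2 difference of 1.11 (standard error 0.299, and by limma an adjusted p = 0.133). Its partner RRAGA differed by 0.51 and LAMTOR4, a subunit of the Ragulator scaffold, by -0.48 (adjusted p = 0.370 and 0.384 from limma). LAMTOR4 overlaps GPC2 on the other strand, and whether the counting used strand is not stated.

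The exchange factors, GTPase-activating proteins and effectors of RAP1 had a median of 0.09 over 13 tested genes. APBB1IP, the effector RIAM that links RAP1 to talin, had 1.06, 3.39 and 2.87 FPKM across the controls and 6.10, 5.51 and 9.72 across the GSKA group. The groups did not overlap, with a log2 difference of 1.28 (standard error 0.409, and by limma an adjusted p = 0.202). The cAMP-activated exchange factor RAPGEF4 and the chaperone-like factor RAP1GDS1 differed by 1.02 and 0.77 (adjusted p = 0.292 and 0.397 from limma).

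The RAL list had a median of 0.17 over 11 tested genes, with 0 at an unadjusted p under 0.05. The RAL exchange factors RALGPS2 and RALGDS differed by 0.64 and -0.47 (adjusted p = 0.430 and 0.626 from limma). RALGPS2 overlaps ANGPTL1 on the other strand. The genes of prenylation and CaaX processing had a median of 0.12 over 7 tested genes. These processes attach the lipid anchor of RHEB, RAP1 and RALA and trim the protein end that carries it. PDE6D, a carrier of prenylated GTPases, had 30.8, 51.8 and 50.4 FPKM across the controls and 90.5, 78.8 and 83.1 across the GSKA group. The groups were apart, with a difference of 0.94 (standard error 0.261, adjusted p = 0.136 from limma), and PDE6D overlaps an unnamed gene on the other strand. The CaaX protease ZMPSTE24 and the farnesyltransferase subunit FNTB differed by 0.76 and -0.64 (adjusted p = 0.288 and 0.526 from limma).

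**Figure D4:**
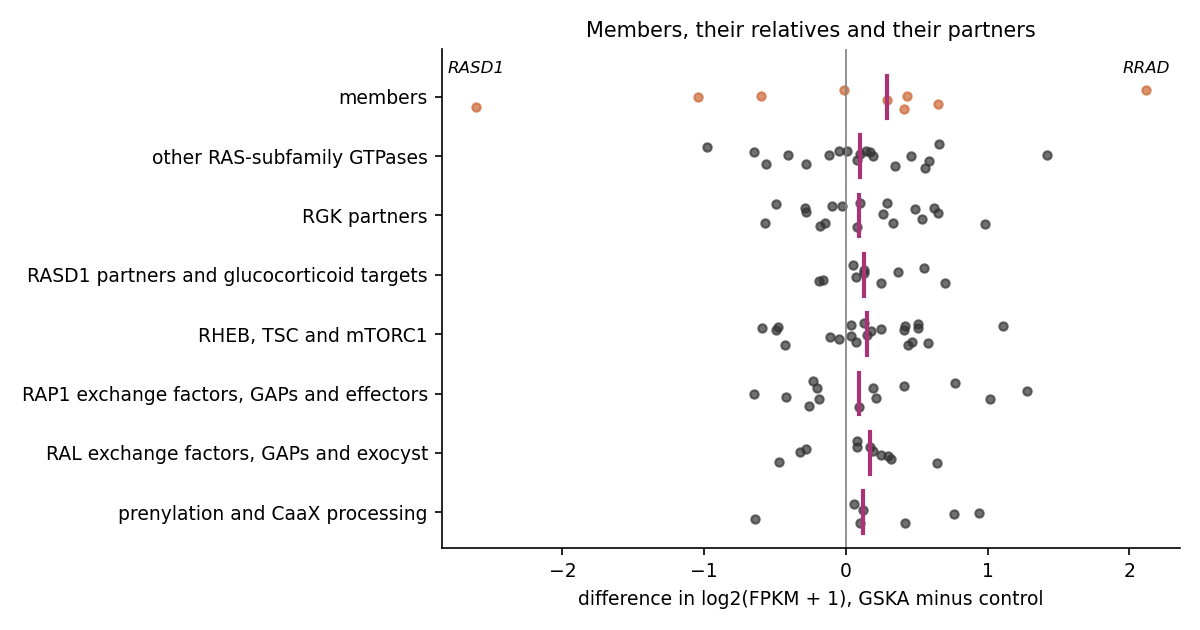
Difference in log2(FPKM + 1), GSKA minus control, for the members (top row) and for the tested genes of 7 lists of relatives and partners, 1 point per gene, with a bar at each median and points spread vertically for legibility. The list genes run from -0.98 to 1.42 with medians of 0.09 to 0.17. RRAD at 2.12 and RASD1 at -2.61, both selected on this difference, lie outside that range.

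The tested genes whose log2(FPKM + 1) was most like that of RRAD over the 6 libraries, by Pearson correlation, were CFTR, PPP1R35 and MITF. Since the libraries fall into 2 groups, the correlation describes likeness and is given with no test. CFTR, a chloride channel gene (r = 0.9945), had 1.78, 2.65 and 0.990 FPKM across the controls and 5.13, 5.93 and 3.64 across the GSKA group. MITF, a transcription factor gene best known from melanocytes (r = 0.9936), had 1.52, 1.68 and 0.603 FPKM across the controls and 3.19, 3.14 and 2.34 across the GSKA group. PPP1R35, a gene of centriole elongation (r = 0.9939), was more abundant, at 63.0 to 78.2 FPKM in the controls and 88.4 to 99.6 in the GSKA libraries. All 3 shared with RRAD the low value of replicate 3 within each group, as genes chosen for likeness over the same libraries would. With quantile normalization the correlation of PPP1R35 with RRAD was 0.9329.

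The genes most like RASD1 were C5AR2, HUWE1 and 1 locus of 7SK, a small nuclear RNA. C5AR2, a complement receptor gene (r = 0.9939), was at 1.62, 1.36 and 1.39 FPKM in the controls, at 0.450 in GSKA replicate 1, and listed at 0 in GSKA replicates 2 and 3. HUWE1, an E3 ubiquitin ligase gene (r = 0.9912), had 5.48, 5.13 and 5.85 FPKM across the controls and 2.46, 2.04 and 1.77 across the GSKA group. The 7SK locus (r = 0.9897, 25224255 to 25224585 on chromosome 23) had 46.9, 44.2 and 55.0 FPKM across the controls and 18.8, 14.4 and 13.5 across the GSKA group. It is 1 of several similar copies, between which the assignment of fragments is uncertain. In all 3, as in RASD1, GSKA replicate 1 was the highest of its group, which again goes with the choice by likeness.

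The libraries carried the markers of their label. All 11 listed markers of oocytes and early embryos were found and tested, none at 0 in all libraries. They summed to 2042 to 2845 FPKM in the controls and 2672 to 3443 in the GSKA libraries. Of the 11, 10 were higher and 1 lower in the GSKA group, with a median log2 difference of 0.54. At an unadjusted p under 0.05 by limma, 5 were higher and 0 lower. The 1 called, where 0.357% of all tested genes were, was KHDC3L, with a log2 difference of 1.46 (by limma an adjusted p = 0.0348). Of 10 cumulus and granulosa markers, 9 were found, and their sum was 38.9 to 54.5 FPKM in the controls and 71.2 to 81.6 in the GSKA libraries. The 4 tested ones were all higher in the GSKA group, with a median log2 difference of 0.81, and 0 were called (3 at an unadjusted p under 0.05 by limma). STAR, a gene of steroid synthesis, was the largest part of the cumulus and granulosa sum in every library. It ran from 20.1 to 40.3 FPKM in the controls and from 43.5 to 50.6 in the GSKA libraries. TNFAIP6, a gene of the cumulus matrix, ran from 4.32 to 11.3 and from 15.2 to 16.6. Of the markers too low to be tested, PTX3, AMH and INHBA had lower means in the GSKA group. GREM1 and CYP19A1 had higher means there. INHBA reached 0.366 FPKM in the controls and was at 0 in every GSKA library. CYP19A1, the aromatase gene expressed by granulosa cells, stayed at or below 0.131 FPKM. Of 6 sperm markers 4 were found, at a sum of 0 to 0.872 FPKM in the controls and 5.35 to 7.76 in the GSKA libraries. PRM1, TNP1 and ODF1 were at 0 in every control. In the GSKA group PRM1 was also at 0 in replicates 2 and 3, TNP1 in replicate 2 and ODF1 in replicate 3. TNP2, the 1 sperm marker tested, had 1.31, 5.13 and 3.14 FPKM across the GSKA group. In the controls TNP2 was above 0 only in replicate 2. Its log2 difference was 1.66 (adjusted p = 0.138 from limma). Of 5 blood markers 4 were found, at 7.02 to 13.5 FPKM in the controls and 2.58 to 8.36 in the GSKA libraries, with PTPRC at 0 in all but 1 library. Most of that sum in every library was the haemoglobin gene HBA, at 5.73 to 12.8 FPKM in the controls and 1.47 to 6.40 in the GSKA libraries, and CD3E was above 0 in 5 of the 6 libraries. The cumulus and sperm sums did not overlap between the groups, as was so for RRAD and RASD1, and their part in those differences was not tested. Mitochondrial genes held 13.2% of the FPKM of control replicate 1 and 5.31% to 7.26% in the other libraries. Without control replicate 1 the log2 differences were 2.26 for RRAD and -2.55 for RASD1.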

How the data were processed

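The 6 libraries of 8-cell embryos, 3 control and 3 GSKA, were grouped by their titles. The authors deposited FPKM values per gene, and the submitters' processing notes list StringTie 1.3.4d, HISAT2 2.0.4 and cutadapt 1.9. The build of the genome was not given in the sources used here. A deposited table of the authors' own comparison by edgeR (folds, p-values and q-values) was not used. The low FPKM values showed no steps from which whole reads could be recovered, so no count test was run and limma took its place.

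Groups were compared by limma 3.58.1 (R 4.3.3) on log2(FPKM + 1), a scale that understates changes of low genes. The model had group as its single term, and the variance followed an intensity trend. It covered the 10654 genes that reached 1 FPKM in 3 or more libraries, with Benjamini-Hochberg adjustment over all of them and a threshold of 0.05. The procedure was tested on simulated data, with changes planted only in genes with a mean log2(FPKM + 1) above 3. RRAD, RASD1, RASD2, REM1, REM2 and RAP1A lay below that mean, so recovery of changes at their levels was not tested. Genes named are the 10 members, the up to 3 tested genes with the smallest p in each of 7 lists of relatives and partners, and the 3 tested genes with a symbol most correlated with RRAD and with RASD1. Members and lists were chosen with earlier results of these data known. The neighbouring genes, the channel subunits, the GTPase activity genes and the pairs of relatives were added after values were seen, and NOS1AP and NR3C1 were named after their values were seen. No p is given for the members. Some genes that this rule takes are not reported here. The primers come from the study's supplementary table. Alternatives covered the pseudocount, filter, scaling, replicate block, variance trend and each library left out.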

Additional observations from a re-analysis of the deposited data

How the results depend on the processing

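The log2 differences of RRAD, RASD1, RASD2, REM1, REM2, RHEB, RAP1B and RALA kept their sign under all 13 alternatives, and that of RAP1A turned in 3. With a pseudocount of 0.1 the difference of RASD1 was -3.14. The number of members called was 1, but 0 with no filter, and 0 to 1 when each library was left out. The number of relatives and partners called was 0, and 0 to 2 when each library was left out, with RASL11A among the 2 called without control replicate 2. By mean FPKM RRAD ranked 7 of the 9 members in the controls but 4 after GSKA, and RASD1 ranked 4 in the controls but 8 after GSKA. Deviations from the group means correlated weakly between libraries with the same replicate number (-0.0824, 0.136 and -0.125). With means of 3 libraries these values cannot settle whether equal numbers mark a shared culture, so the pairing of the samples is unknown. A fit with a replicate block called 2 members, RRAD and RASD1, and 19 genes in all. Over all tested genes 38 were called, against 15 with a pseudocount of 0.1, 21 with median scaling, 7 with no intensity trend, 0 with no filter, and 24 without control replicate 2 and 6, 10 and 4 without GSKA replicates 1, 2 and 3. FPKM keeps no counts, so the precision that depth gives to low genes such as REM1, REM2 and RASD2 is unknown.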
